A study of Mus musculus with 6 samples.

Results

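Markers of resident macrophages, monocytes and myeloid cells in general were compared between hearts of 2 genotypes after doxorubicin. The 36 genes are those with these gene names in the deposited count table of 35618 genes. They fall into 14 markers of resident macrophages, 6 of monocytes and 16 shared by myeloid cells, a division made from their known expression. All 36 had a row and all 36 passed the filter on low counts.

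The 6 libraries came from heart muscle tissue taken 3 days after intraperitoneal doxorubicin at 20 mg/kg. Doxorubicin is an anthracycline used against cancer and toxic to the heart. Mice were aged 6 to 8 weeks. In 3 of them Gsdmd was floxed (GSDMD-FLOX/FLOX) and still transcribed, and these served as controls. In the other 3 Gsdmd was deleted in the myocardium (GSDMD-CKO), by a recombinase whose driver the sources at hand do not name. All 6 received the drug, so no comparison with untreated hearts was made. Gsdmd encodes gasdermin D, the pore-forming protein of pyroptosis, which macrophages also use. Whether macrophages of the knockout hearts kept Gsdmd was not tested.

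Resident macrophages of the heart are seeded largely before birth and renew themselves locally. They clear dying cells and debris, and in mice they are recognised by the surface proteins encoded by Timd4, Lyve1 and Folr2 and by scavenger receptors such as those of Cd163 and Mrc1. Monocytes come from the bone marrow through the blood, carry the surface protein Ly6C in their inflammatory form, and become macrophages inside injured tissue. Both express the receptor encoded by Csf1r and the transcription factor PU.1, encoded by Spi1.

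Each library held 17279147 to 18875902 counted reads. Gsdmd measured 6707 to 8271.5 CPM, that is, counts relative to the scaled library size, in the floxed libraries and 77.4 to 137 CPM in the knockouts. Heart muscle markers were present, with a summed level of 14156 to 20601 CPM in the floxed and 8935 to 18910 CPM in the knockouts over 6 genes. Knockout library 1 stood apart: mitochondrially encoded genes took 18.1% of its counts, against 5.48% to 11.2% in the other libraries. Calls of members that change without it are given both ways. The labels do not say whether the libraries of a genotype came from separate mice, so each p-value reflects library-to-library spread, which may be technical.

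The promoters of the members that lay at the ends of the comparison are shown first, since PU.1 binds a core of the letters GAGGAA in the regulatory DNA of myeloid genes. They are the 250 bases before the start of each gene, from RefSeq on GRCm38.p6, and capitals mark each match to GAGGAA or its reverse complement TTCCTC. The genes are Apoe (chr7:19699189-19699438, minus strand) and Pf4 (chr5:90772185-90772434, plus strand) with the lowest log2 fold changes, Ly6c2 (chr15:75111972-75112221, minus strand) and Plac8 (chr5:100572206-100572455, minus strand) with the highest, and Fcgr1 (chr3:96293970-96294219, minus strand) and Laptm5 (chr4:130913066-130913315, plus strand) as general myeloid genes near 0. The choice was made among the 26 members with an entry in the promoter table. Apoe has 3 windows there and Ly6c2 and Plac8 have 2 each, of which the first listed is shown. For Ly6c2 the bases after this start were not found near the start of an annotated transcript of the gene, unlike those of the other 5 genes.
Apoe: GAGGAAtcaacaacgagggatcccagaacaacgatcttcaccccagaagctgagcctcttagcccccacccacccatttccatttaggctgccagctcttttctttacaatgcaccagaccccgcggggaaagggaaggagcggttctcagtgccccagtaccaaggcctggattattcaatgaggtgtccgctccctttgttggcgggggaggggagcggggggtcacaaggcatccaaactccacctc
Pf4: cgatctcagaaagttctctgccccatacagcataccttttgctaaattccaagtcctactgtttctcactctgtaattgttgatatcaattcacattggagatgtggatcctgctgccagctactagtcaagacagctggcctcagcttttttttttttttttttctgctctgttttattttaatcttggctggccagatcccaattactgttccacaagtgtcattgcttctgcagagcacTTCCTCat
Ly6c2: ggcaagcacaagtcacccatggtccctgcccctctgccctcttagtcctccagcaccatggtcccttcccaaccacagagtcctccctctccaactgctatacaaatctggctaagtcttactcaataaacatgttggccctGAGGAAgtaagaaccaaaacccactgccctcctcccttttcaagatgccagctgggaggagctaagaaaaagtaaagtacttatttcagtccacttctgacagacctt
Plac8: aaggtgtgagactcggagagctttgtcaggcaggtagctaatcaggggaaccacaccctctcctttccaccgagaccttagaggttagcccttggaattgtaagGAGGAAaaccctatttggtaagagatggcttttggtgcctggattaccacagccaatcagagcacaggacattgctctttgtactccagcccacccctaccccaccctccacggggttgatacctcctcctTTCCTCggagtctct
Fcgr1: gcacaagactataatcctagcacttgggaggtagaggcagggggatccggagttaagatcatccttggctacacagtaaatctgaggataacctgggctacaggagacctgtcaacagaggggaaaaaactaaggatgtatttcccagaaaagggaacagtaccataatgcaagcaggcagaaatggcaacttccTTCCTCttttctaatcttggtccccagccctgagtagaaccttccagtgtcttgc
Laptm5: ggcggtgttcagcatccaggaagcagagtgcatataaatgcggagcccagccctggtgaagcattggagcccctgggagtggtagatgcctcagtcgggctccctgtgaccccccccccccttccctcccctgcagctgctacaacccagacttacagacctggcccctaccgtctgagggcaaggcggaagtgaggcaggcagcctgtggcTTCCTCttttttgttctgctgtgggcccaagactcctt
Each of these 6 windows held a match, at 8 bases before the start in Pf4, 108 in Ly6c2, 55 in Fcgr1, 38 in Laptm5, 15 and 146 in Plac8, and at the far end of the window, 250 bases before the start, in Apoe. Of the 26 members, 15 held the motif in at least 1 listed promoter (57.7%), compared with 6986 of 27025 genes in the whole table (25.9%). Matches were present in all 3 groups, in 6 of 11 resident, 3 of 5 monocyte and 6 of 10 general myeloid members. A match is a description of these letters and does not show binding.

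Level per gene length spanned a wide range. Apoe, the lipid carrier apolipoprotein E, and Lyz2, the lysozyme of macrophages and neutrophils, were the most abundant, with means over all 6 libraries of 2405 and 1234 FPKM, that is, fragments scaled to gene length and depth, as the authors deposited them. The signalling adapters Tyrobp and Fcer1g followed at 344 and 329.8 FPKM. Timd4 and Vsig4, both phagocytic receptors of resident macrophages, were lowest at 0.515 and 0.510 FPKM, and their counts per library were only 12 to 32 and 2 to 26. At that depth a modest difference in either gene was not detectable.

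No member passed edgeR's quasi-likelihood test over all genes. The call rate there was 0.0121%, or 2 of 16591 genes, both lower in the knockout. At an unadjusted p under 0.05 stood 4 of the 36 members (11.1%), namely Pf4, Siglec1 and Apoe on the lower side and Ly6c2 on the higher side, beside 7.02% of all genes tested (4.37% higher, 2.65% lower). DESeq2 called 2 members lower, Apoe and Pf4 (5.56%), beside 1.47% of all genes called by that tool, 0.724% lower. Limma-voom called 0 members, beside 0.00603% of all genes, on the lower side. Without knockout library 1 edgeR called Ly6c2 higher and Cd163 lower, where 2.92% of all genes were called, 2.41% higher and 0.514% lower. For 4 members (11.1%) every knockout value lay below every floxed value and for 0 above, a share close to that of all genes, among which the genotypes were apart for 11.8% in either direction, 5.98% lower and 5.82% higher.

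The 3 groups of members were arranged differently around 0. Log2 fold changes were negative for 13 of the 14 resident members (median -0.55) and positive for 5 of the 6 monocyte members (median 0.62). The monocyte median moved with single libraries, to 0.96 without knockout library 1 and 0.37 without knockout library 3. The 16 general myeloid members were divided into 7 positive and 9 negative, with a median of -0.03. Over all genes tested the median was 0.03, with 8926 of 16591 positive. In a sample of bulk tissue, fewer cells of a type and less RNA per cell cannot be told apart, and this holds for every level below. The difference between the resident and monocyte medians was -1.17, and it lay between -1.57 and -0.83 when each library was left out in turn. Levels within a library were also compared, as medians of log2(CPM + 0.5) minus the floxed mean. The resident minus the monocyte level was -0.43, 0.50 and -0.16 in floxed libraries 1, 2 and 3. In knockout libraries 1, 2 and 3 it was 0.39, -1.74 and -1.60, so the genotypes overlapped through knockout library 1.

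**Figure D1:**
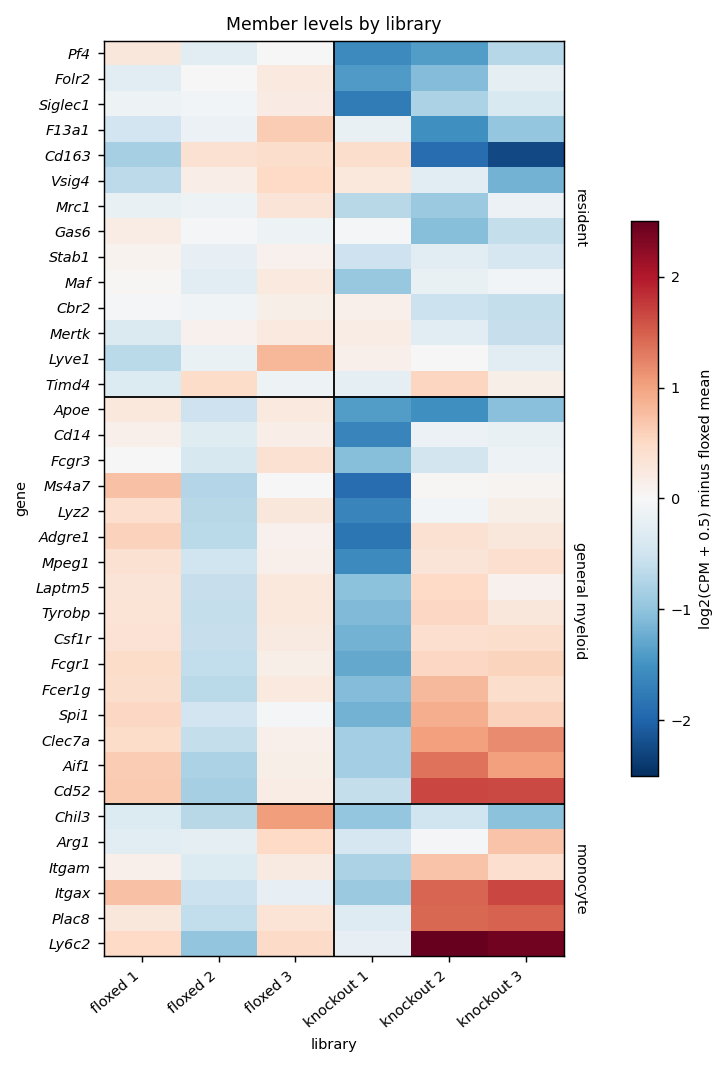
Level of each member in each library, as log2(CPM + 0.5) relative to the floxed average, with genes in rows by group and libraries in columns. General myeloid genes are low in knockout library 1 and floxed library 2, resident genes are mostly low in knockout libraries 2 and 3, and Ly6c2, Plac8 and Itgax are high there.

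**Figure D2:**
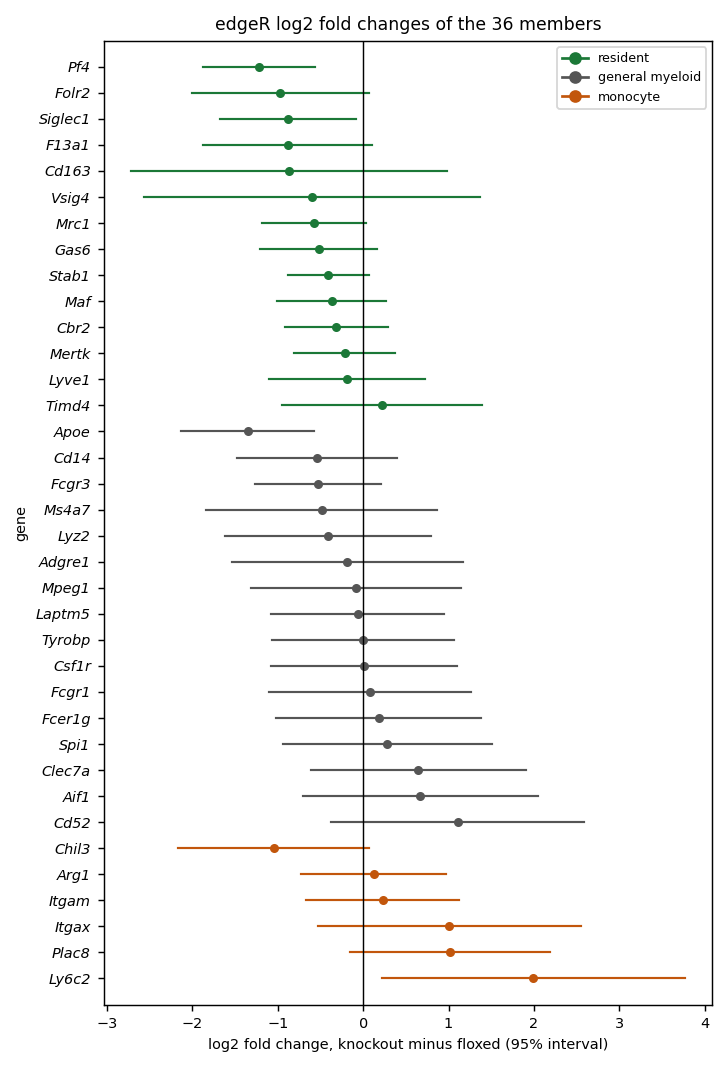
Log2 fold change of each member, knockout minus floxed, from edgeR with its 95% interval, coloured by group. Intervals of Pf4, Siglec1, Apoe and Ly6c2 exclude 0 before adjustment over all genes.

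General myeloid genes set the scale. Csf1r (ENSMUSG00000024621), the receptor for the growth factors that keep macrophages alive, measured 351, 185 and 319 CPM in floxed libraries 1, 2 and 3, against 122, 366 and 374 CPM in knockout libraries 1, 2 and 3. Adgre1, which encodes the macrophage surface protein F4/80, measured 196, 82.4 and 141 CPM and then 37.4, 172 and 159.8 CPM. In both genes floxed library 2 was the lowest of the floxed and knockout library 1 the lowest of all, and the other 4 libraries were higher. Their log2 fold changes were 0.01 (SE 0.46, 95% interval -1.08 to 1.10) and -0.18 (SE 0.57, -1.54 to 1.17), with adjusted p-values of 0.998 and 0.977 in edgeR. That order was shared by the group: 14 of 16 general myeloid members were lowest in knockout library 1 (87.5%, against 25.9% of all genes tested), and all 16 were lowest among the floxed libraries in floxed library 2 (against 38.6%).

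Tyrobp and Fcer1g encode the adapter proteins through which Fc and other activating receptors signal by way of tyrosine motifs. Tyrobp averaged 226 ± 71.6 CPM with the floxed gene and 226 ± 111 CPM without it, and Fcer1g 266 ± 97.2 and 301 ± 167 CPM (SD, n = 3). Fcgr1, the high-affinity receptor for IgG, averaged 99.4 ± 34.9 and 104.8 ± 57.2 CPM. The low-affinity receptor Fcgr3 measured 226, 169.99 and 293 CPM in floxed libraries 1, 2 and 3, against 107, 164 and 206 CPM in the knockouts, with overlap (log2 fold change -0.53, SE 0.31, edgeR adjusted p = 0.832). The libraries of both adapters overlapped, with 95% intervals of the difference of -1.07 to 1.06 for Tyrobp and -1.02 to 1.38 for Fcer1g on the log2 scale.

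Spi1, the gene of PU.1, averaged 86.4 ± 30.2 CPM with the floxed gene and 105 ± 61.6 CPM without it (SD, n = 3). Laptm5, a lysosomal membrane protein of blood cells, averaged 462 ± 143 and 442 ± 208 CPM, and Mpeg1, which encodes the pore-forming protein perforin-2 of phagocytes, 449 ± 129 and 424 ± 243 CPM. Lyz2 averaged 1823 ± 662 and 1372 ± 721 CPM, with possible sharing of reads with its near copy Lyz1, and Ms4a7, a membrane protein of macrophages, 162 ± 79.9 and 115 ± 65.9 CPM. All 5 had overlapping libraries. Aif1, which encodes the actin-binding protein IBA1, averaged 89.8 ± 40.9 and 143 ± 86.3 CPM, also with overlap.

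Cd14, a coreceptor for bacterial lipopolysaccharide, measured 42.1, 30.8 and 43.1 CPM in floxed libraries 1, 2 and 3, then 11.8, 34.5 and 33.5 CPM in knockouts 1, 2 and 3. Clec7a, the receptor dectin-1 for fungal glucans, measured 31.4, 14.9 and 24.9 CPM and then 12.3, 46.9 and 52.3 CPM. Cd52, a small glycoprotein on lymphocytes as well as myeloid cells, measured 198, 71.0 and 143 CPM and then 83.8, 404 and 397 CPM. Cd14 was not above the highest floxed library in any knockout library, whereas Clec7a and Cd52 exceeded it in knockout libraries 2 and 3. Their log2 fold changes were -0.54, 0.65 and 1.11, and edgeR's adjusted p-values ran from 0.815 for Cd52 to 0.896 for Clec7a.

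Apoe (ENSMUSG00000002985) departed most from the rest of the general group. It measured 8629, 4958 and 8506 CPM in floxed libraries 1, 2 and 3, against 2713, 2470.3 and 3457 CPM in knockout libraries 1, 2 and 3. Every knockout library was below every floxed one, by a factor of 2.56 between the means. The log2 fold change was -1.35 (SE 0.33), the 95% interval was -2.13 to -0.58, and the adjusted p was 0.529 in edgeR and 0.00209 in DESeq2. Over all alternatives its log2 fold change stayed between -1.58 and -1.23, with adjusted p-values from 0.00209 to 0.9999.

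Among resident macrophage markers Pf4, Siglec1 and Stab1 were lower in every knockout library than in any control, and 0 of the 14 passed edgeR over all genes. Pf4 (ENSMUSG00000029373), the chemokine platelet factor 4 that tissue macrophages also make, measured 81.4, 55.2 and 66.9 CPM in floxed libraries 1, 2 and 3, against 21.8, 25.0 and 40.5 CPM in knockout libraries 1, 2 and 3. The genotypes did not overlap, and the mean was 2.33-fold lower in the knockout. Its log2 fold change was -1.22 (SE 0.28, 95% interval -1.88 to -0.56), with an adjusted p of 0.529 in edgeR and 0.0165 in DESeq2. Platelets also hold Pf4 protein, and Ppbp, another platelet chemokine, measured 1.63 to 1.80 CPM in the floxed and 0.799 to 1.84 CPM in the knockouts. The 5 platelet genes in the table summed to 13.2 to 17.0 CPM with the floxed gene and 6.44 to 15.3 CPM in knockout libraries, Gp6 having a count of 0 in some, and 4 of 4 tested were negative with a median of -0.40. Their part in the Pf4 level was not tested.

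Siglec1, the sialic acid receptor CD169, measured 55.3, 57.9 and 69.9 CPM in floxed libraries 1, 2 and 3, against 17.6, 35.0 and 46.6 CPM in knockout libraries 1, 2 and 3. Stab1, the scavenger receptor stabilin-1 of macrophages and endothelium, measured 483, 393 and 486 CPM and then 314, 376 and 337 CPM. Neither overlapped between the genotypes, which with Pf4 made 3 of the 14 resident members (21.4%, against 5.98% of all genes tested in this direction). Their log2 fold changes were -0.88 (SE 0.34, 95% interval -1.68 to -0.08) and -0.41 (SE 0.20, -0.88 to 0.07), with edgeR adjusted p-values of 0.665 and 0.762.

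**Figure D3:**
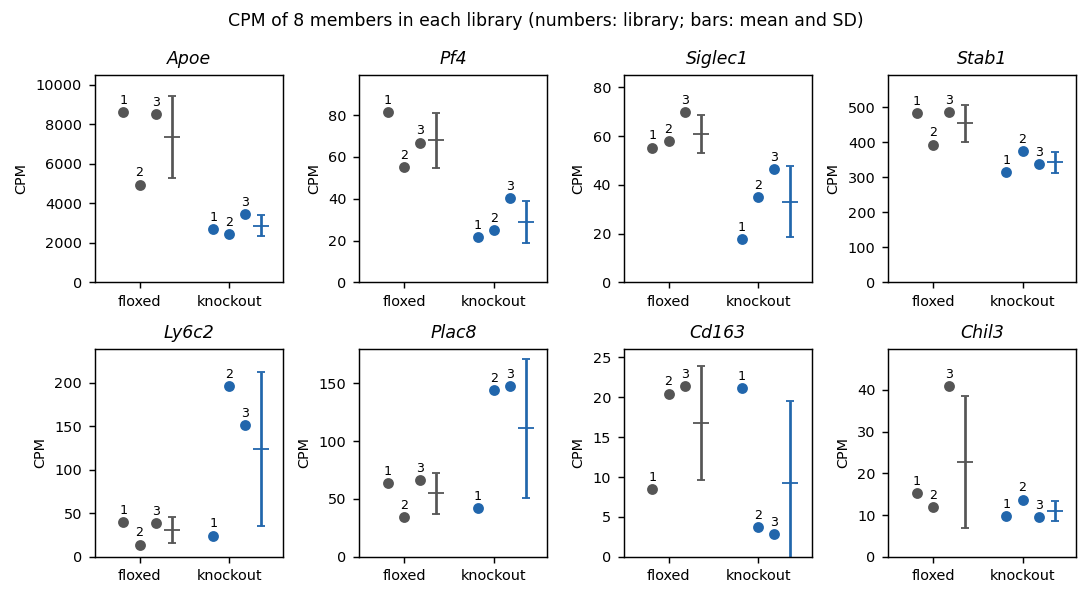
CPM of 8 members in each library, numbered 1 to 3 within a genotype, with the mean and SD of each genotype beside the points (SD bars are cut off at 0). Apoe, Pf4, Siglec1 and Stab1 do not overlap, while Ly6c2, Plac8 and Cd163 split knockout library 1 from knockout libraries 2 and 3.

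Mrc1, the mannose receptor CD206, measured 80.5, 84.1 and 116 CPM in floxed libraries 1, 2 and 3, against 56.8, 48.1 and 82.8 CPM in knockouts 1, 2 and 3. Folr2, folate receptor beta, measured 3.43, 4.26 and 5.11 CPM and then 1.27, 1.73 and 3.49 CPM. In both the highest knockout library reached just above the lowest floxed one. F13a1, the A subunit of coagulation factor XIII, which monocytes also express, measured 32.7, 41.1 and 71.4 CPM and then 40.1, 15.6 and 23.2 CPM, with knockout library 1 inside the floxed range. The log2 fold changes of Mrc1, Folr2 and F13a1 were -0.58, -0.97 and -0.88, with edgeR adjusted p-values of 0.735, 0.739 and 0.757.

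Cd163, the scavenger receptor that takes up haemoglobin bound to haptoglobin, depended on 1 library. It measured 8.47, 20.5 and 21.4 CPM in floxed libraries 1, 2 and 3, 21.1 CPM in knockout library 1, and 3.77 and 2.85 CPM in knockout libraries 2 and 3. With all libraries the log2 fold change was -0.87 (SE 0.78, 95% interval -2.72 to 0.99, edgeR adjusted p = 0.904). Without knockout library 1 it was -2.36, with an edgeR adjusted p of 0.0389, and adjusted p-values over all alternatives ran from 0.0389 to 0.9999. The 5 red cell genes, which include the haemoglobin genes, summed to 5.30, 11.4 and 14.8 CPM in floxed libraries 1, 2 and 3, then to 49.3, 348 and 407 CPM in knockout libraries 1, 2 and 3. Of these, Hbb-bt had a count of 0 in some floxed libraries, and the part of red cell RNA in the Cd163 level was not tested.

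The remaining resident markers overlapped between the genotypes. Lyve1, the hyaluronan receptor of resident macrophages and lymphatic vessels, measured 12.7, 18.4 and 37.0 CPM in floxed libraries, then 22.5, 20.5 and 16.7 CPM in knockouts 1, 2 and 3. Timd4, the phosphatidylserine receptor TIM-4 that binds dying cells, measured 0.675, 1.56 and 0.870 CPM and then 0.761, 1.68 and 1.15 CPM. Both showed no order by genotype, with 95% intervals of -1.10 to 0.72 and -0.95 to 1.39 on the log2 scale. Lymphatic endothelial markers, which could contribute to Lyve1, summed to 84.3 to 122 CPM with the floxed gene and 109.6 to 229 CPM in knockout libraries, with none at 0, and their part was not tested.

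Gas6, the ligand that bridges dying cells to the receptor Mertk, averaged 474 ± 53.5 CPM with the floxed gene and 330 ± 115 CPM without it (SD, n = 3). Mertk averaged 58.8 ± 12.2 and 50.5 ± 13.7 CPM, and Maf, a transcription factor of resident macrophages, 98.2 ± 17.4 and 75.9 ± 22.6 CPM. Cbr2, a carbonyl reductase, averaged 13.5 ± 1.19 and 10.9 ± 3.40 CPM, and the complement receptor gene Vsig4 0.933 ± 0.531 and 0.623 ± 0.521 CPM. Their log2 fold changes were all negative, from -0.60 for Vsig4 to -0.22 for Mertk. Stab1, Gas6 and Lyve1 are also made by endothelium or fibroblasts, and the 6 endothelial markers summed to 918 to 1183 CPM with the floxed gene and 610 to 1861 CPM in knockout libraries, while the 6 fibroblast markers summed to 3228 to 6160 and 2601 to 7049 CPM. None of those markers was at 0, and their part in these levels was not tested. Without Lyve1, Stab1, Gas6, Pf4 and F13a1, which other cells share, the resident median was -0.58. Whether other cells contribute to the remaining resident markers was not tested.

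Of the monocyte markers Ly6c2, Plac8, Itgax and Itgam stood above every floxed library in knockout libraries 2 and 3 but not in knockout library 1. Ly6c2 (ENSMUSG00000022584), which encodes the Ly6C protein of inflammatory monocytes, measured 40.0, 14.0 and 39.3 CPM in floxed libraries 1, 2 and 3, against 24.4, 196 and 151 CPM in knockout libraries 1, 2 and 3. Its log2 fold change was 1.99 (SE 0.75, 95% interval 0.22 to 3.77), with an adjusted p of 0.663 in edgeR with all libraries and 0.0283 without knockout library 1, where the log2 fold change was 2.46. Adjusted p-values over all alternatives ran from 0.0283 to 0.9999. Ly6c1, a near-identical gene of endothelium, measured 364, 586 and 506 CPM and then 1131, 587 and 323 CPM, an order unlike that of Ly6c2, and the treatment of reads shared by both is not stated in the labels.

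Plac8, a small cysteine-rich protein of monocytes and lymphocytes, measured 63.7, 34.1 and 66.7 CPM in floxed libraries, then 41.9, 144 and 147 CPM in knockouts 1, 2 and 3. Itgax, the integrin subunit CD11c, measured 37.4, 15.1 and 19.2 CPM and then 11.5, 61.6 and 71.5 CPM, and Itgam, the subunit CD11b, 51.8, 37.6 and 55.5 CPM and then 27.3, 78.4 and 63.9 CPM. In all 3 genes knockout libraries 2 and 3 were above every floxed library and knockout library 1 was not. Their log2 fold changes were 1.02 (SE 0.49), 1.01 (SE 0.65) and 0.23 (SE 0.38), and their edgeR adjusted p-values were 0.757, 0.856 and 0.956.

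Chil3 and Arg1 did not follow the other monocyte members. Chil3, the chitinase-like protein Ym1 of mouse monocytes and alternatively activated macrophages, measured 15.3, 11.9 and 40.8 CPM in floxed libraries 1, 2 and 3, against 9.77, 13.7 and 9.44 CPM in knockouts 1, 2 and 3. Its log2 fold change was -1.05 (SE 0.47, edgeR adjusted p = 0.739), and floxed library 3 alone stood above 20 CPM. Arg1, the arginase of alternatively activated macrophages, averaged 16.6 ± 5.37 and 18.1 ± 7.76 CPM (SD, n = 3). Without Itgam and Itgax, which neutrophils, dendritic cells and natural killer (NK) cells share, the monocyte median was 0.57.

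Lymphocyte transcripts were high in the same libraries as Ly6c2. The 11 T and NK cell genes summed to 77.4 to 178 CPM in floxed libraries, then to 154, 767 and 774 CPM in knockout libraries 1, 2 and 3, with none at 0, and Cd8a measured 31.2, 143 and 149 CPM in the latter. Memory CD8 T cells of mice also carry Ly6C, and Plac8, Itgax and Cd52 are expressed in lymphocytes, and the part of these cells in the 4 levels was not tested. The red cell genes, too, were highest in knockout libraries 2 and 3, at 348 and 407 CPM summed. They summed to 49.3 CPM in knockout library 1 and 5.30 to 14.8 CPM in floxed libraries. The part of blood held in the tissue in the levels of Ly6c2, Plac8, Itgax and Itgam was not tested. Neutrophil markers were low, and the 6 tested were all negative, with a median of -0.77. Ly6g had at most 3 counts, and Ly6g, Retnlg, Camp and Ltf each had a count of 0 in some library. The 10 genes summed to 17.9 to 28.8 CPM with the floxed gene and 6.99 to 14.5 CPM in knockout libraries.

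**Figure D4:**
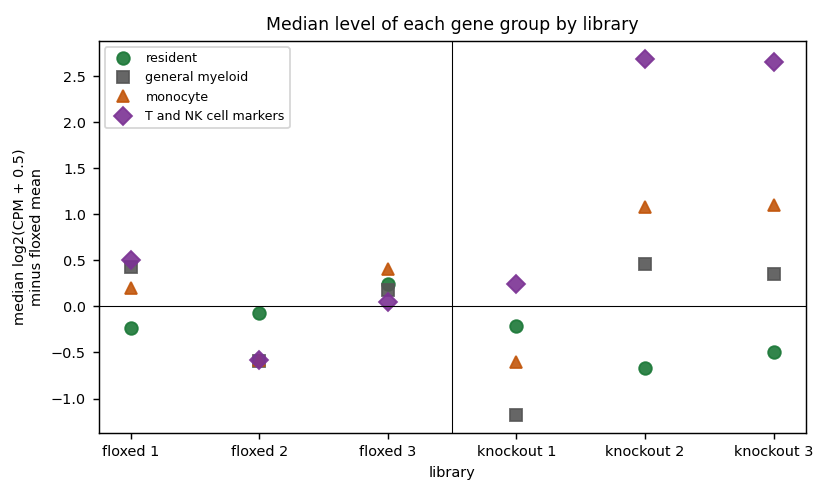
Median level over the members of each group in each library, as log2(CPM + 0.5) minus the floxed mean, with T and NK cell markers for comparison. In knockout libraries 2 and 3 monocyte markers lie at 1.08 and 1.10 and resident markers at -0.67 and -0.50, while in knockout library 1 general myeloid markers lie at -1.18.

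Because general myeloid levels differed between libraries of 1 genotype, members were also set against them within each library. The resident level minus the general myeloid level was -0.66, 0.52 and 0.07 on the log2 scale in floxed libraries 1, 2 and 3 and 0.96, -1.12 and -0.85 in knockout libraries 1, 2 and 3, with overlap. The monocyte level minus the general myeloid level was -0.23, 0.02 and 0.23 in the floxed and 0.57, 0.62 and 0.74 in the knockout libraries, without overlap. In this measure knockout library 1 lay with knockout libraries 2 and 3 for monocyte genes and apart from them for resident genes. The monocyte level itself was -0.61 in knockout library 1, the lowest of any library. Its difference was positive because the general myeloid level there was lower still, at -1.18.

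Gene by gene, the log2 ratio to the mean of the general myeloid members did not overlap between the genotypes for 11 of the 36 members. Among monocyte members 3 of 6 were higher in every knockout library (Ly6c2, Plac8 and Itgax), and 0 were lower. Among general myeloid members, each set against the other 15, Cd52, Aif1, Clec7a and Fcer1g were higher and Cd14, Lyz2 and Ms4a7 lower, and among the 14 resident members Pf4 alone was lower. Over all genes tested 6.17% did not overlap in this measure, 5.68% higher and 0.482% lower. That share is not a like background, since general myeloid members shared an order across libraries that most genes did not. Floxed library 2 was the lowest floxed library for 100% of them and for 38.6% of all genes tested. The share was also taken against all 16 general members rather than 15. A like limit holds for the shares of ratios to Csf1r and Adgre1 below. Without knockout library 1 the CPM of 18 members did not overlap between the genotypes, 10 higher and 8 lower, beside 37.4% of all genes tested, 20.4% higher and 17.0% lower. Of the 8, 7 were resident members, and of the 10, 4 were monocyte and 6 general myeloid members.

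Ratios to Csf1r alone were computed for a few genes chosen after their levels were seen. The CPM of Ly6c2 was 0.114, 0.0758 and 0.123 of that of Csf1r in floxed libraries 1, 2 and 3 and 0.201, 0.536 and 0.404 of it in knockout libraries 1, 2 and 3. For Plac8 the ratios were 0.181, 0.185 and 0.209, then 0.345, 0.393 and 0.394. Both were higher in every knockout library, as were 5.5% of all genes tested. Against Adgre1 the ratio of Ly6c2 was 0.204, 0.170 and 0.278, then 0.651, 1.14 and 0.947, also without overlap, as for 6.43% of all genes tested on the higher side. The ratio of Pf4 to Csf1r was 0.232, 0.299 and 0.210 in the floxed and 0.179, 0.0683 and 0.108 in the knockout libraries, and that of Apoe 24.6, 26.9 and 26.7, then 22.3, 6.75 and 9.24. Both were lower in every knockout library, as were 1.08% of all genes tested. Against the mean of the other general myeloid members, however, Apoe overlapped, with knockout library 1 at 5.30 and floxed library 1 at 5.29 on the log2 scale. The ratios of Mrc1 and Cd163 to Csf1r also overlapped, being highest in knockout library 1, at 0.467 and 0.174, and below every floxed library in knockout libraries 2 and 3. No exact permutation test of a ratio is given, since its smallest possible p with 3 libraries a group is 0.1.

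**Figure D5:**
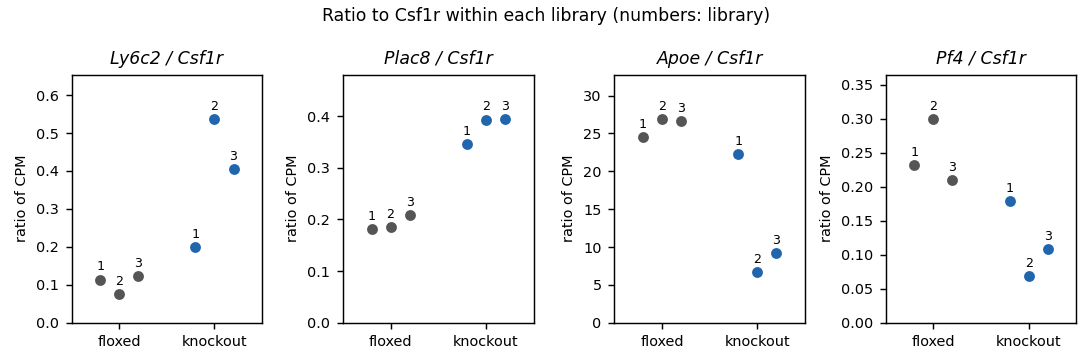
Ratio of the CPM of Ly6c2, Plac8, Apoe and Pf4 to that of Csf1r in each library, numbered 1 to 3 within a genotype. The first 2 ratios are higher and the last 2 lower in all knockouts than in any control.

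Other genes of the same pathways were read from lists that did not include the members, and edgeR called 0 of their genes over all genes tested. The macrophage growth factors Csf1 and Il34 measured 127 to 153 and 8.88 to 10.7 CPM in the floxed and 92.4 to 172 and 8.74 to 11.6 CPM in the knockouts. Of the 7 genes of the colony-stimulating factor axis 5 were tested, 3 positive and 2 negative with a median of 0.14, led by the receptor chains Csf2ra with 111 ± 23.3 and 151 ± 62.1 CPM and Csf2rb with 61.3 ± 21.9 and 77.9 ± 39.8 CPM (SD, n = 3). The 12 myeloid transcription factors were divided into 6 positive and 6 negative (median 0.09), with Nr4a1, a nuclear receptor of patrolling monocytes, at 29.7 ± 4.63 and 49.9 ± 26.6 CPM and Id3 at 137 ± 18.5 and 193 ± 47.0 CPM.

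Further macrophage genes were mostly negative, 11 of 12 tested, with a median of -0.46. Among them the lysosomal protease Ctsd averaged 1974 ± 447 and 1038 ± 187 CPM and the haem oxygenase Hmox1 170 ± 22.6 and 99.4 ± 46.3 CPM. DESeq2 called Ctsd lower, with an adjusted p of 0.0395. Of 13 further monocyte genes 7 were positive and 6 negative, with a median of 0.19 and a range of -0.41 to 1.45. The leukosialin gene Spn averaged 27.5 ± 8.57 and 74.9 ± 50.1 CPM, and Ccr2, the chemokine receptor that recruits monocytes, 57.8 ± 29.0 and 117 ± 81.1 CPM (SD, n = 3). Without knockout library 1 edgeR called Spn higher, at a log2 fold change of 1.89 with an adjusted p of 0.0172. The part of T and NK cells in the Spn and Ccr2 levels was not tested.

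Receptors that signal through Tyrobp, Fcer1g and their kinases had a median of -0.04, with 9 of 14 tested negative. Trem2, a lipid-binding receptor paired with Tyrobp, averaged 235 ± 72.6 and 109 ± 35.9 CPM and Clec4d 20.6 ± 2.70 and 11.01 ± 4.50 CPM (SD, n = 3). In the system of receptors for dying cells, 8 of 10 genes were negative with a median of -0.15, among them the bridging protein Mfge8 with 376 ± 39.1 and 258 ± 41.7 CPM and the integrin subunit Itgb5 with 371 ± 44.5 and 252 ± 47.9 CPM. Genes of alternative activation had 4 positive and 3 negative members, with a median of 0.15. Of these, the transglutaminase Tgm2 averaged 801 ± 91.2 and 549.6 ± 67.5 CPM and the lectin Mgl2 1.65 ± 0.546 and 3.89 ± 3.25 CPM.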

How the data were processed

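RNA was sequenced from total RNA of 6 mouse heart samples with a stranded mRNA kit, per the labels' protocols. Raw counts for 35618 genes and FPKM values for 35606 were deposited by the authors. Per the submitters' processing notes, the tools were HISAT2 2.1.0 and fastp 0.19.3, with featureCounts 1.6.2, StringTie 1.3.4d, DESeq2 1.22.1, Cufflinks and GATK 4.0.11.0, and the build mm10, without the step each served. The handling of multiply matching or antisense reads is not stated in the labels, and 8 of the 36 members overlap another gene in the table.

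Tests on the counts used edgeR 4.0.16 (R 4.3.3): filterByExpr at a minimum count of 10, which left 16591 genes with 99.8% of the counts, TMM scaling, and the robust quasi-likelihood F test of knockout minus floxed. Benjamini-Hochberg adjustment ran over all genes tested, with calls at an adjusted p under 0.05. Standard errors and 95% intervals came from the F statistic. The biological coefficient of variation was 33.3%. Levels of groups are medians of log2(CPM + 0.5) minus the floxed mean. Alternatives were RLE scaling, library sizes without mitochondrial genes and Gsdmd, other filters, DESeq2 1.42.0, limma-voom (limma 3.58.1), limma on log2 FPKM with pseudocounts of 1 and 0.1, a replicate block, each library left out, and a log2 fold change of at least 1. On simulated counts a larger share of the calls was false for DESeq2 than for edgeR. Those counts took the spread of each gene from edgeR and held no library that stood apart like knockout library 1. They therefore cannot give the share of false calls here, and calls made by DESeq2 alone are to be read with caution.

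The members and lists were chosen with earlier results of these data known. Full values are given for the 5 members of each group with the smallest p and for 9 defining markers, and for the first 2 by p of each other list, except 1 list that is not reported here. Stab1 was added after its values were seen. No columns of other samples were present (0). Of all pairs of libraries, at most 1.25% of genes tested held the same count.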

Additional observations from a re-analysis of the deposited data

How the results depend on the processing

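The resident, general myeloid and monocyte medians and the difference of the first and last moved by less than the spread between libraries under every alternative. That spread was an SD of 0.24, 0.75, 0.78 and 0.91 in the same order. For the general and monocyte medians it exceeded the median itself, so a change of sign would have passed this limit. The general median did change sign, between -0.31 and 0.32, as single libraries were left out. Over the alternatives the resident median ran from -0.61 to -0.40 and the monocyte median from 0.37 to 0.96. The number of genes called over all genes was 10 without a filter on low counts, 243 by DESeq2, 1 by limma-voom, 0 with the replicate block and 0 to 500 without 1 library at a time. Members called were 2 by DESeq2 and 0 to 2 without 1 library. Members without overlap were 5 to 18 as single libraries were left out, most without knockout library 1, where 37.4% of all genes tested did not overlap. That share was not taken for the other libraries left out. Smaller groups also overlap less readily, so these counts are no result about the members. Of 609 alternative values of single members, 566 kept their direction and side of the threshold, 4 kept their direction and became calls, and 39, in 12 members, changed sign. Csf1r, near 0 throughout, was -0.00185 with RLE, -0.00558 without mitochondrial genes and Gsdmd, -0.00189 by DESeq2, -0.117 by limma-voom, -0.0865, -0.0927 and -0.0865 on log2 FPKM (pseudocounts 1 and 0.1, and a mean of at least 1), -0.0830 with the replicate block and -0.227 to 0.359 without 1 library. Fcgr1 was -0.0853 by limma-voom, -0.0500, -0.0586 and -0.0500 on log2 FPKM, -0.0314 with the block and -0.186 to 0.452 without 1 library. Without 1 library at a time the ranges were -0.108 to 0.626 for Timd4, -0.484 to 0.335 for Lyve1, -0.0873 to 0.538 for Itgam, -0.277 to 0.399 for Arg1, -0.508 to 0.228 for Adgre1, -0.210 to 0.545 for Fcer1g, -0.310 to 0.333 for Tyrobp, -0.383 to 0.309 for Mpeg1, -0.409 to 0.242 for Laptm5 and -0.117 to 0.671 for Spi1. The cause of these changes was not tested. Same-numbered libraries did not deviate together (correlations across genes of -0.570, -0.310 and 0.0411). With so few libraries a group these correlations cannot exclude that the numbers pair them.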

Other observations

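Markers of dendritic cells, which share Itgax with monocytes, were all positive among the 7 tested of 9, with a median log2 fold change of 1.12 beside 0.03 over all genes. Clec9a, a receptor of cross-presenting dendritic cells for dead cells, measured 9.14, 10.2 and 7.61 CPM in floxed libraries 1, 2 and 3, against 19.5, 22.8 and 16.3 CPM in knockout libraries 1, 2 and 3. No library overlapped, knockout library 1 included, and its log2 fold change was 1.12 (edgeR adjusted p = 0.529, DESeq2 0.00277). Xcr1, a chemokine receptor of the same cells, measured 2.29, 0.960 and 1.31 CPM and then 2.47, 12.5 and 8.44 CPM. Cd209a and Siglech, with a count of 0 in some library, were not tested.

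Genes of cell division were positive in 6 of 6, with a median of 1.99. Mki67, the proliferation antigen Ki-67, measured 20.3, 11.1 and 17.1 CPM in the floxed and 14.0, 94.1 and 90.2 CPM in knockouts 1, 2 and 3. Knockout libraries 2 and 3 were its highest, as they were for the monocyte and the T and NK cell levels, but the order of the other libraries differed. Aurkb, a mitotic kinase, averaged 3.86 ± 1.58 and 15.3 ± 9.84 CPM. The T and NK cell list had 11 of 11 positive with a median of 2.21, led by Cd8a and Trac, the latter at 10.6 ± 4.77 and 53.9 ± 32.2 CPM (SD, n = 3). Red cell genes had a median of 4.97, with Hbb-bs at 4.27 ± 1.96 and 134 ± 94.3 CPM and Hba-a1, which has a near-identical copy, at 5.67 ± 2.66 and 105 ± 74.7 CPM.

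Among the other lists the medians were 0.64 for 6 lymphatic genes (Flt4 25.6 ± 1.78 and 42.0 ± 2.98 CPM, Mmrn1 6.35 ± 2.65 and 15.0 ± 2.44 CPM) and 1.07 for 5 mast cell genes (Cma1 1.59 ± 0.660 and 3.71 ± 2.73 CPM, Mcpt4 0.866 ± 0.666 and 1.98 ± 0.890 CPM). They were 0.29 for 6 endothelial genes (Kdr 109 ± 25.6 and 164 ± 82.0 CPM, Cdh5 191 ± 42.8 and 242 ± 106 CPM), -0.12 for 6 fibroblast genes (Tcf21 18.7 ± 8.06 and 13.5 ± 4.24 CPM, Pdgfra 51.0 ± 8.36 and 47.1 ± 5.81 CPM) and -0.20 for 6 heart muscle genes (Myh6 1547 ± 119.9 and 2996 ± 2353 CPM, Tnnt2 7015 ± 2023 and 4630 ± 2614 CPM). The 6 neutrophil genes tested had a median of -0.77 (Mmp8 2.74 ± 1.599 and 1.16 ± 0.382 CPM, Retnlg 3.66 ± 1.23 and 0.840 ± 0.930 CPM). The platelet genes Treml1 and Itga2b averaged 1.32 ± 0.266 and 0.565 ± 0.228 CPM and 10.5 ± 2.03 and 8.00 ± 3.25 CPM. In edgeR with all libraries 0 genes of these lists had an adjusted p under 0.05. DESeq2 called 6 of 11 T and NK cell, 5 of 5 red cell, 2 of 7 dendritic and 1 of 6 lymphatic genes higher. Without knockout library 1 edgeR called 8 T and NK cell, 6 cell division, 5 red cell, 2 dendritic and 2 lymphatic genes higher, and 0 genes of these lists lower.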
